A study of Homo sapiens with 8 samples.

Results

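HGC27 cells that overexpressed the p53 mutant R175H were compared with HGC27 cells that overexpressed GFP, across all genes that passed a count filter. HGC27 is an established human gastric cancer cell line, described in the labels as having no p53 of its own, so both groups carry that background. The 4 libraries labelled GFP or R175H were taken, 2 per group, of 8 in the series. The other 4 came from the same line overexpressing R248Q or R273H, 2 libraries each. GFP is a fluorescent protein that serves as an expression control. All cells were grown in alpha-MEM, and polyadenylated RNA was sequenced from 100 ng of total RNA per library. The sources used here do not give the vector, its promoter, or whether cells were a pool or a clone. The labels number the libraries but do not tell whether each had a culture of its own, so p-values measure only the spread between these libraries, which may be technical.

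Wild-type p53 is a transcription factor that activates genes of cell cycle arrest, DNA repair and cell death after DNA damage. R175H is a frequent tumour mutation that destabilises the fold of the DNA-binding domain, whereas R248Q and R273H alter residues that contact DNA. Several gene programmes recur below. HIF, a dimer of an oxygen-sensitive alpha subunit and ARNT, switches on glycolysis and angiogenesis genes when prolyl hydroxylases lack oxygen. ATF4 is translated when amino acids are scarce or eIF2alpha is phosphorylated, and raises genes of amino acid supply. SREBP factors drive cholesterol and fatty acid synthesis, and HSF1 drives cytosolic chaperones.

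Total counts were 9769342 and 8928928 in GFP and 6800463 and 9017777 in R175H, where replicate 1 had the lowest total of the series. The 2 GFP libraries differed more than replicates of the other groups, with a chi-square per degree of freedom of 5.72, against 1.60 in R175H. GFP replicate 1 had fewer counts from long transcripts: over 916 well-counted genes of 8000 nt or more its median deviation from the mean of the 8 libraries was -0.28 on the log2 scale, against -0.03 in GFP replicate 2. Counts are therefore also given against GFP replicate 2 alone. Of the 126 called genes named here, 125 were also called against it, all with the same sign, and SEL1L was the exception (0.19 in place of 0.23 ± 0.07). Their log2 fold changes against it differed from those against both GFP libraries by a median of 0.06 and by at most 0.46 (WTIP). That agreement was in part built in. The genes with the largest changes were named only if also called against GFP replicate 2 alone, and those named from lists included the members with the lowest p. Over all called genes the share called again was lower, as given below. Defining epithelial markers were at or near 0: the sum of CDH1, EPCAM, KRT8, KRT18 and KRT19 was 1.34 to 1.54 CPM (counts relative to the library total) in GFP and 0.554 to 1.18 in R175H. Of 14 gastric gland and pit markers, 8 had no count in these 4 libraries and only MUC1 passed the filter. All 8 fibroblast markers, collagens among them, passed it, with summed levels of 4565 to 5000.3 CPM in GFP and 4675 to 4846 in R175H. Blood and endothelial markers summed to at most 18.0 and 3.48 CPM in any of the 4.

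The count filter left 13213 of 25435 gene symbols. Of these, tested with edgeR's quasi-likelihood test and Benjamini-Hochberg adjustment at 0.05, 844 were higher in R175H (6.39% of genes tested) and 607 were lower (4.59%). Most changes were small: 619 of the 844 and 536 of the 607 were under 1.5-fold, and 49 and 24 reached 2-fold. All 844 and all 607 had libraries that did not overlap between groups, but so did 6756 of all genes tested (51.1%, either direction). Where a lack of overlap is stated below for called genes, it describes them and adds no evidence to the call. Against GFP replicate 2 alone, 864 genes were higher (6.54%) and 735 lower (5.56%). The 2 sets of calls shared 596 higher genes, 70.6% of the 844 and 69.0% of the 864, and 456 lower genes, 75.1% of the 607 and 62.0% of the 735. Each called gene had the same sign in both, and of those at least 2-fold changed, 42 of 49 and 19 of 24 were called again. The 2 comparisons share the R175H libraries and GFP replicate 2. That against GFP replicate 2 alone took its spread from the mutant libraries, whose replicates differed less than those of GFP. Its p-values therefore leave out the difference between the GFP libraries.

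Without R175H replicate 1 the calls numbered 307 higher and 151 lower (2.32% and 1.14%), and without R175H replicate 2 they numbered 340 and 182 (2.57% and 1.38%). Without GFP replicate 2, so that GFP replicate 1 was the only control, 1852 were higher and 1539 lower. With either R248Q library left out, which here served only to estimate the spread, 382 were lower. When the trend with transcript length was removed from every library, 1019 were higher and 1166 lower, so that lower calls outnumbered higher ones.

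**Figure D1:**
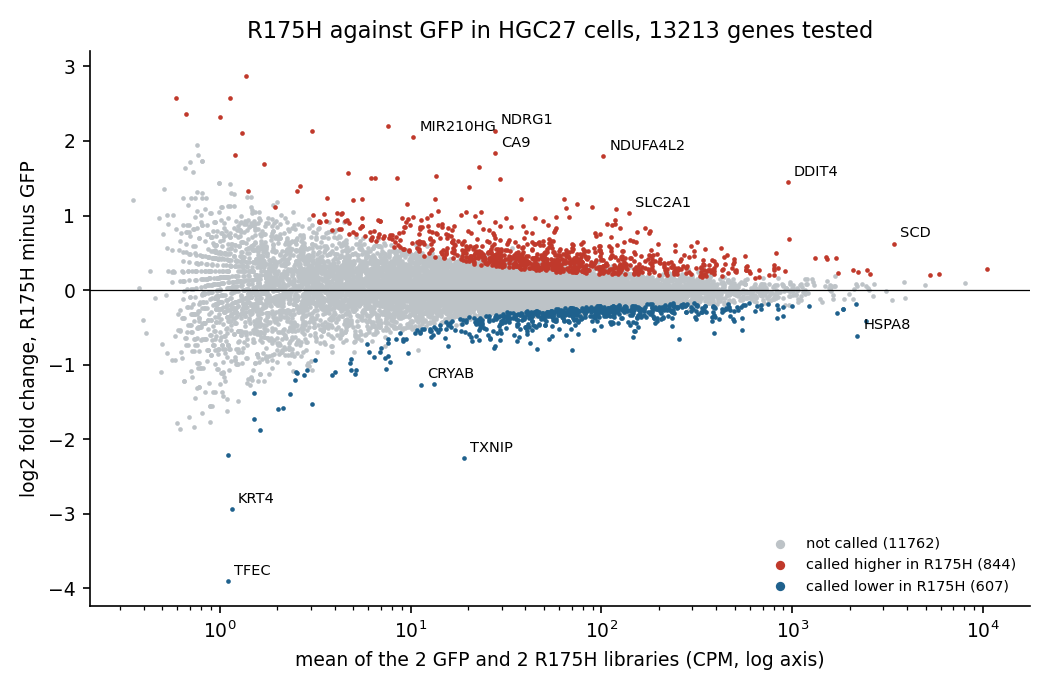
Each point is a gene, with its mean CPM over the 2 GFP and 2 R175H libraries on the x axis (log scale) and its log2 fold change, R175H minus GFP, on the y axis. The 844 red and 607 blue points passed an adjusted p of 0.05, and most of them lie within 1 log2 unit of 0.

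Higher calls included more long transcripts against both GFP libraries than against GFP replicate 2 alone. Of the 1095 tested genes of 8000 nt or more, 191 were higher and 16 lower against both GFP libraries, and 117 and 45 against GFP replicate 2 alone. The median length of the 844 higher genes was 4970 nt and that of the 607 lower genes 2577 nt. When GFP replicate 2 was the control, the called genes had medians of 3365 and 3381 nt, beside 3394 nt for all genes tested. The class of 8000 nt or more had a median log2 fold change of 0.17 against both GFP libraries, 0.30 against GFP replicate 1 alone and 0.05 against GFP replicate 2 alone. For the 2731 genes under 2000 nt the same 3 medians were -0.05, -0.12 and 0.03.

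**Figure D2:**
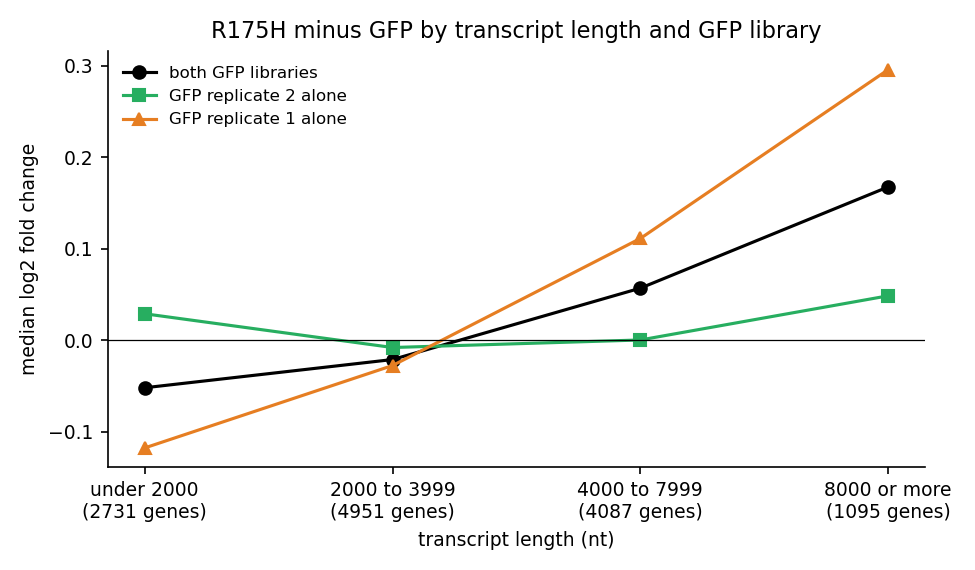
The y axis gives the median log2 fold change, R175H minus GFP, of the genes in 4 classes of transcript length in nt on the x axis, with 1 line for each choice of GFP control. The line for GFP replicate 1 alone climbs from -0.12 to 0.30, whereas the line for GFP replicate 2 alone stays between -0.01 and 0.05.

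Genes that HIF activates rose together in R175H. Over the 5 lists of HIF components, glucose use, glycogen, other targets and collagen modification, 57 of 88 tested genes were called higher. Their upstream sequences are shown first because part of them carry the letters of the core HIF binding element, ACGTG. In the 250 bases before the RefSeq start site (GRCh38.p14, both strands read), 47 of the 57 genes had a promoter sequence to read, and 27 of these held ACGTG (57.4%). Of the 31 tested members that were not called higher, 26 had a sequence and 8 held it (30.8%). The same letters were in 23.6% of the promoters of 9709 tested genes and in 18.7% of all 27305 promoters of that length. Matched letters describe the sequence and do not show binding. PFKFB4, PDK1 and SLC2A1, all called higher, did not hold them. The 4 sequences below were picked from those that did. In them, each 5′ to 3′ on the strand of its gene, capitals mark ACGTG or its reverse complement.
CA9, chr9:35673678-35673927, plus strand: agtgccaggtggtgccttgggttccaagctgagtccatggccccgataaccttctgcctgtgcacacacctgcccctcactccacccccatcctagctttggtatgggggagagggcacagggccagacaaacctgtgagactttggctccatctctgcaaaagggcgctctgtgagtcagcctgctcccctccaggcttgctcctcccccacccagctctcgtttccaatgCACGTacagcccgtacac
MIR210HG, chr11:568458-568707, minus strand: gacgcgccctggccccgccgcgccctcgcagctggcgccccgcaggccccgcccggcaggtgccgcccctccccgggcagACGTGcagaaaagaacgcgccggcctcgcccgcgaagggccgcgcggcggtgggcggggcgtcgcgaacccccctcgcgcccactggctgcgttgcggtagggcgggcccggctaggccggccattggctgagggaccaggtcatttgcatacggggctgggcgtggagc
ANKRD37, chr4:185396591-185396840, plus strand: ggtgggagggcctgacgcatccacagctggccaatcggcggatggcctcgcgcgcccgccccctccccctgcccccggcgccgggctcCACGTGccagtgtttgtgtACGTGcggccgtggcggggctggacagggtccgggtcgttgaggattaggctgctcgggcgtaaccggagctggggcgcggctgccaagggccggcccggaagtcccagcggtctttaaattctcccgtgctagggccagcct
PGK1, chrX:78103998-78104247, plus strand: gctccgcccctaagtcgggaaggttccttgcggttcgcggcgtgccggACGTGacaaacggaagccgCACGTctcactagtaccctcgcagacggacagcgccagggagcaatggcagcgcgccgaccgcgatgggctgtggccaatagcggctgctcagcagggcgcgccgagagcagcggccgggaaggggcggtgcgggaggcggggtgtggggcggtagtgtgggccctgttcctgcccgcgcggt
The element starts 18 bases before the start site in CA9, which encodes carbonic anhydrase 9, and 170 bases before it in MIR210HG, from which a microRNA known for its rise in hypoxia is cut. In ANKRD37 and PGK1 it occurs at several places, among them 143 bases before the start of ANKRD37 and 202 and 183 bases before that of PGK1. ANKRD37, an ankyrin repeat protein, was at 4.32 and 5.21 CPM in the GFP libraries and 9.89 and 8.30 in those of R175H (log2 fold change 0.92 ± 0.21, the value after ± being the SE). Its groups did not overlap, and its call was lost without R175H replicate 1 (0.80).

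Of the HIF subunits ARNT rose, and so did the enzymes EGLN1 and EGLN3 that sense oxygen. Levels are given as CPM in replicate 1 and then replicate 2, and differences as log2 fold changes, R175H minus GFP, with the SE after ±. HIF1A, an oxygen-sensitive alpha subunit, was at 118 and 133 CPM in the GFP libraries and 135 and 123 in those of R175H (log2 fold change 0.04 ± 0.07, edgeR adjusted p = 0.784). Its groups overlapped. ARNT, its constant partner, was at 56.9 and 64.1 CPM in GFP and 80.7 and 80.0 in R175H, a rise of 0.41 ± 0.08 (0.33 against GFP replicate 2 alone). EGLN1, the main prolyl hydroxylase and itself a HIF target, was at 79.1 and 85.7 CPM in GFP and 159 and 146 in R175H and rose by 0.88 ± 0.07 (0.82 against GFP replicate 2 alone). EGLN3, another hydroxylase of that kind, went from 27.03 and 23.8 to 37.5 and 40.5 CPM (0.62 ± 0.10, and 0.72 against GFP replicate 2 alone). In these 3 genes both R175H libraries lay above both GFP libraries. They were the called members among 7 tested, 3 higher and 0 lower, with a list median of 0.18 beside 0.01 for all genes tested. VHL, which marks hydroxylated HIF alpha for destruction, had 0.07 ± 0.07 and was not called.

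Glucose uptake and glycolysis had 18 of 23 tested genes higher and 0 lower, and the median log2 fold change was 0.48. With GFP replicate 2 as the only control 20 were higher. SLC2A1, the main glucose transporter of proliferating cells, was at 88.2 and 95.7 CPM in GFP and 188 and 187 CPM in R175H (1.03 ± 0.06, and 0.97 against GFP replicate 2 alone). HK2, the hexokinase that traps glucose as its phosphate, was at 115 and 131 CPM in GFP and 217 and 219 in R175H (0.83 ± 0.07, and 0.74 against GFP replicate 2 alone). In both, the R175H libraries were close together and well above those of GFP. Of the kinases that control flux through phosphofructokinase, PFKFB4 went from 11.5 and 10.5 to 35.0 and 34.3 CPM, a rise of 1.65 ± 0.12. The aldolase ALDOC went from 84.4 and 67.5 to 164 and 160.2 CPM (1.09 ± 0.08), and its GFP libraries stood further apart than its R175H libraries. PGK1, the first enzyme of the pathway to yield ATP, was at 750.4 and 730.3 CPM in GFP and 1188 and 1183 in R175H (0.68 ± 0.05).
At the end of glycolysis, LDHA, which reduces pyruvate to lactate, went from 1471 and 1409.5 to 1876 and 2009 CPM (0.43 ± 0.05). PDK1, a kinase that inhibits pyruvate dehydrogenase, went from 15.6 and 15.2 to 44.1 and 42.8 CPM (1.49 ± 0.10, edgeR adjusted p = 1.7e-07). The increase in PDK1 was 1.51 against GFP replicate 2 alone and larger than that of any other gene of this list apart from PFKFB4. TPI1, triosephosphate isomerase, was not called against both GFP libraries (0.16 ± 0.06, edgeR adjusted p = 0.125) and had 0.27 against GFP replicate 2 alone. Leaving out 1 library at a time gave 14 (without R175H replicate 2) to 20 higher genes.

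Glycogen enzymes had 5 of 11 tested genes higher and 0 lower. GBE1, the branching enzyme, went from 40.3 and 43.5 CPM in GFP to 73.8 and 74.9 CPM in R175H (0.83 ± 0.08), PGM1, which converts glucose phosphates into each other, rose by 0.59 ± 0.07, and GYS1, glycogen synthase, by 0.42 ± 0.06. The 3 held in every alternative run, and without R175H replicate 1 they were the only 3 of this list called. Enzymes that modify collagen had 6 of 10 tested genes higher and 0 lower. P4HA1, a catalytic subunit of collagen prolyl hydroxylase, was at 121 and 115 CPM in GFP and 183 and 186 in R175H (0.64 ± 0.06). PLOD2, a lysyl hydroxylase, rose by 0.73 ± 0.07, and the crosslinking oxidases LOX and LOXL2 by 0.59 ± 0.08 and 0.61 ± 0.07. P4HB, the subunit that P4HA1 shares with other enzymes, had -0.06 ± 0.05 and was not called. Without R175H replicate 2 the count was 4.

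The remaining HIF targets had 25 of 37 tested genes higher and 1 lower, with a median of 0.77 (0.77 against GFP replicate 2 alone, where 24 were higher and 1 lower). Leaving out 1 library at a time gave 20 to 29 higher. NDRG1, a stress-responsive growth regulator, was at 9.77 and 10.6 CPM in GFP and 44.6 and 45.3 CPM in R175H, a 4.41-fold rise (log2 2.14 ± 0.12, edgeR adjusted p = 1.5e-08). NDUFA4L2, which lowers the activity of respiratory complex I, was at 50.3 and 41.1 CPM in GFP and 158 and 159 in R175H, a 3.46-fold rise (log2 1.79 ± 0.08). CA9 was at 13.1 and 11.2 CPM in GFP and 40.0 and 46.3 in R175H (1.84 ± 0.13). MIR210HG was at 3.49 and 4.55 CPM in GFP and 16.7 and 16.6 in R175H (2.05 ± 0.17). In all 4 the lowest R175H library exceeded the highest GFP library by more than 2-fold.
Against GFP replicate 2 alone these 4 gave 2.08, 1.95, 1.96 and 1.87. AK4, a mitochondrial adenylate kinase, went from 12.6 and 9.54 to 31.6 and 27.1 CPM (1.39 ± 0.15), and PPFIA4, a liprin scaffold, rose by 1.05 ± 0.12. The transcriptional repressor BHLHE40 rose by 0.98 ± 0.08 and MXI1, a repressor of the MAX network, by 0.86 ± 0.11. TFRC, the transferrin receptor for iron uptake, was the member called lower (-0.27 ± 0.07), a call that was lost without R175H replicate 1 (-0.28) or replicate 2 (-0.26).

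Secreted factors among the HIF targets rose as well. VEGFA, the principal angiogenic factor, was at 87.2 and 93.1 CPM in GFP and 172 and 151 CPM in R175H (0.84 ± 0.07). Stanniocalcin STC1 went from 15.2 and 15.2 to 30.2 and 32.4 CPM (1.05 ± 0.12). The vasodilator ADM went from 20.1 and 20.1 to 33.6 and 34.9 CPM (0.77 ± 0.10). ANGPTL4, which inhibits lipoprotein lipase, went from 22.6 and 19.5 to 34.2 and 34.5 CPM (0.70 ± 0.11). No R175H library of these 4 genes fell into the GFP range. In the wider list of secreted growth and angiogenic factors 6 of 21 tested genes were higher and 2 lower. Without GFP replicate 2, 4 were lower. IGFBP3, which binds insulin-like growth factors, was lower, at 42.0 and 46.1 CPM in GFP and 30.7 and 30.5 in R175H (-0.53 ± 0.10).

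Lysine demethylases, which use the same oxygen-dependent chemistry as the HIF hydroxylases, had 6 of 20 tested genes higher and 1 lower. KDM3A went from 70.8 and 78.5 to 139 and 137 CPM (0.89 ± 0.08). KDM4B went from 76.9 and 84.3 to 162 and 148 CPM (0.94 ± 0.08), and KDM6B, which removes H3K27 methylation, rose by 0.55 ± 0.10. The member that fell was JMJD6, a hydroxylase of splicing factors, from 39.2 and 30.2 to 18.7 and 21.6 CPM (-0.77 ± 0.13). Against GFP replicate 2 alone the counts were again 6 and 1. Without R175H replicate 2 there were 3 higher genes and without GFP replicate 2 there were 11. Of the mitophagy receptors, BNIP3L, which tags mitochondria for removal, went from 46.2 and 45.7 to 101 and 104 CPM (1.16 ± 0.07), the gene called higher of 11 tested, of which 2 were lower. BNIP3, its relative, had 0 or 1 count in each of the 4 libraries and was not tested.

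**Figure D3:**
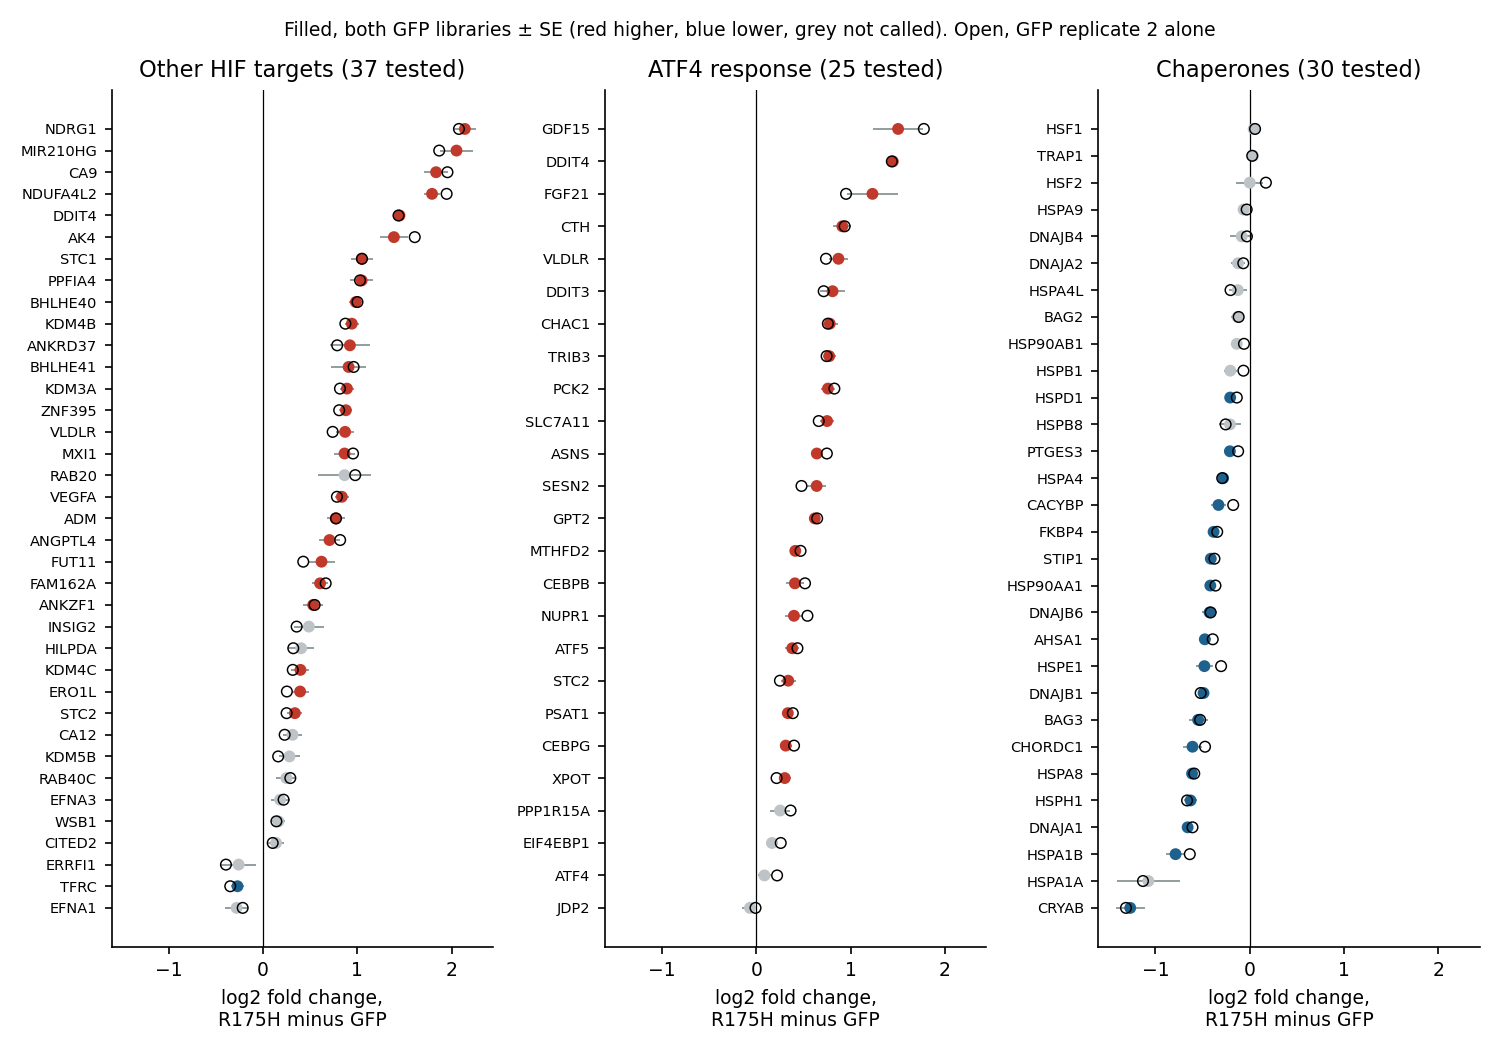
Each row is a tested gene of 3 lists, with its log2 fold change, R175H minus GFP, on the x axis. Filled points with SE bars use both GFP libraries (red called higher, blue called lower, grey not called) and open points GFP replicate 2 alone. Most HIF and ATF4 targets lie to the right of 0 and most chaperones to the left, with open points near the filled ones.

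Genes that ATF4 activates were higher too. Of 25 tested regulators and effectors of that response 21 were higher and 0 lower, and the median log2 fold change was 0.62 (0.54 and 23 higher against GFP replicate 2 alone). Leaving out 1 library at a time gave 17 to 23. The list overlaps that of HIF targets in DDIT4, VLDLR and STC2. DDIT4, an inhibitor of the growth kinase mTORC1 that both pathways induce, was at 505 and 513 CPM in GFP and 1383 and 1392 CPM in R175H, a 2.73-fold rise (log2 1.45 ± 0.05, edgeR adjusted p = 6.8e-11). ATF4 itself was not called (599 and 503 CPM in GFP, 555 and 613 in R175H, 0.09 ± 0.07), and its GFP replicate 1 lay within the R175H range. Against GFP replicate 2 alone the log2 fold change of ATF4 was 0.22.

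Among regulators of the response, the pseudokinase TRIB3 went from 67.0 and 69.6 CPM in GFP to 116 and 117 CPM in R175H (0.77 ± 0.07). The factor DDIT3, also named CHOP, went from 11.2 and 12.8 to 21.98 and 20.1 (0.81 ± 0.13), and ATF5, a relative of ATF4, rose by 0.38 ± 0.07. SESN2, which senses leucine for mTORC1, went from 30.1 and 37.9 to 53.3 and 52.5 CPM (0.64 ± 0.10). In each of them the R175H libraries lay above both GFP libraries. Of the effectors, CHAC1, which degrades glutathione, went from 29.1 and 29.8 to 52.4 and 48.9 CPM (0.78 ± 0.09). The stress cytokine GDF15 rose from few counts, 3.91 and 2.77 to 11.5 and 7.96 CPM (1.503 ± 0.26), and its 2 R175H libraries stood apart.

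Amino acid supply followed the same direction. ASNS, asparagine synthetase, was at 264 and 229 CPM in GFP and 381 and 388 CPM in R175H (0.64 ± 0.06, and 0.75 against GFP replicate 2 alone). CTH, which makes cysteine from cystathionine, went from 19.6 and 19.0 to 37.8 and 35.1 CPM (0.91 ± 0.10). GPT2, mitochondrial alanine transaminase, went from 158 and 153 to 243 and 235 CPM (0.62 ± 0.06). PCK2, mitochondrial phosphoenolpyruvate carboxykinase, went from 138 and 126 to 214 and 232 CPM (0.76 ± 0.07). These 4 were among 5 of 15 tested enzymes of asparagine, alanine, proline and cysteine metabolism that were higher, with 0 lower (7 higher against GFP replicate 2 alone). Of 17 enzymes of serine and one-carbon metabolism 6 were higher and 0 lower, in both comparisons. They included SHMT2, which splits serine in the mitochondrion, at 692 and 676 CPM in GFP and 961 and 973 in R175H (0.50 ± 0.05). MTHFD2, the next enzyme of that pathway, rose by 0.41 ± 0.06, PSAT1, which aminates the serine precursor, by 0.33 ± 0.05, and ALDH1L2, which oxidises mitochondrial formyl folate, by 0.55 ± 0.09.

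Transporters of amino acids had 9 of 16 tested genes higher and 0 lower (10 and 1 against GFP replicate 2 alone). SLC7A11, which imports cystine, was at 69.0 and 78.1 CPM in GFP and 124 and 123 CPM in R175H (0.75 ± 0.07). SLC1A4, a carrier of alanine and serine, rose by 0.66 ± 0.09, SLC6A9, a glycine carrier, by 0.56 ± 0.08, and SLC38A2, a carrier of neutral amino acids, by 0.38 ± 0.06. The counts were 6 and 5 without R175H replicates 1 and 2 in turn. Of 20 cytosolic aminoacyl-tRNA synthetases, which charge tRNAs, 9 were higher and 0 lower, and the list median was 0.13. When only the GFP and R175H libraries were fitted, 1 was higher. DARS, for aspartate, held in every alternative (135 and 137 CPM in GFP, 169 and 169 in R175H, 0.31 ± 0.06). Without R175H replicates 1 and 2 in turn, 5 and 3 synthetases were called, and without GFP replicate 2 there were 11 higher and 4 lower.

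The upstream sequences of the ATF4 genes were read for TGATGNAAN, a common form of the composite element of C/EBP and ATF factors. Over the 5 lists of this response and of amino acid supply, 3 of 29 promoters of genes called higher held it (10.3%), as did 3 of 24 of those not called higher (12.5%), beside 1.37% of the promoters of all genes tested. ASNS is shown because its element is the best known of them, with TGATGNAAN or its reverse complement in capitals and starting 68 bases before the start site.
ASNS, chr7:97872409-97872658, minus strand: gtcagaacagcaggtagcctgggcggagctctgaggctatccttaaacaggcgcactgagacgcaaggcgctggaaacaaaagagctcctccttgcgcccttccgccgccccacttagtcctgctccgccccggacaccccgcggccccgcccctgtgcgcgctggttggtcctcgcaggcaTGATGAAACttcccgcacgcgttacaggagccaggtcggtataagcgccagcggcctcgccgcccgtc

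Part of the genes of cholesterol and fatty acid synthesis were higher in R175H. Of 26 tested genes of sterol synthesis and uptake 13 were higher and 1 lower, with a median of 0.25 (12 and 0 against GFP replicate 2 alone, median 0.23). INSIG1, an SREBP target that restrains the pathway, was at 193 and 190.1 CPM in GFP and 295 and 290.5 CPM in R175H (0.61 ± 0.05). HMGCS1, which makes HMG-CoA, went from 249 and 251 to 364 and 358 CPM (0.53 ± 0.05). No library crossed between groups in these 2 genes. Later enzymes rose as well: SQLE, the squalene epoxidase, by 0.43 ± 0.05, MSMO1, a sterol demethylase, by 0.53 ± 0.07, and DHCR7, which makes cholesterol from its last precursor, by 0.36 ± 0.06. SREBF2, the main activator of sterol genes, rose by 0.34 ± 0.06. There were 7 higher genes and 0 lower without R175H replicate 1 or 2.
Of 16 tested genes of fatty acid synthesis 7 were higher and 1 lower (7 and 0 against GFP replicate 2 alone, and 5 and 0 without R175H replicate 1 or 2). SCD, the desaturase that makes oleate, was at 2539 and 2834 CPM in GFP and 4173 and 4099.9 CPM in R175H (0.62 ± 0.05, edgeR adjusted p = 1.9e-06). FASN, fatty acid synthase, was at 1120 and 1416 CPM in GFP and 1782 and 1678 in R175H (0.45 ± 0.08, but 0.29 against GFP replicate 2 alone). The transcript of FASN is 8565 nt long, in the range in which GFP replicate 1 was low, and its part in the larger value was not tested. ACSL1, which activates fatty acids, rose by 0.39 ± 0.06 and ACSS2, which makes acetyl-CoA from acetate, by 0.44 ± 0.08. The sterol element TCACNCCAC was in 1 of 15 promoters of the called genes of both lists (6.67%), in 0 of 19 of the others, and in 0.803% of all promoters of tested genes.

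Chaperone genes were lower in R175H. Of 30 tested cytosolic and mitochondrial chaperones and their regulators 18 were lower and 0 higher, and the median log2 fold change was -0.36 (-0.30 and 19 lower against GFP replicate 2 alone). Leaving out 1 library at a time gave 14 to 21. HSPA8, the constitutive HSP70, was at 2688 and 2603 CPM in GFP and 1724 and 1739 CPM in R175H (-0.61 ± 0.05, edgeR adjusted p = 6.4e-07). Its co-chaperones fell too, DNAJA1 from 324 and 303 to 193 and 204 CPM (-0.66 ± 0.06). DNAJB1 went from 178 and 187 to 124 and 135 CPM (-0.49 ± 0.06). The nucleotide exchange factor HSPH1 went from 174 and 182 to 123 and 108 CPM (-0.63 ± 0.07). Both R175H libraries were below both GFP libraries in each.
Of the HSP90 machinery, HSP90AA1, the inducible form, went from 2903 and 2695 to 2117 and 2073 CPM (-0.42 ± 0.05), whereas HSP90AB1, the constitutive form, was not called (-0.14 ± 0.05). The difference between these 2 genes was not tested. The cofactors AHSA1 (-0.48 ± 0.06), STIP1 (-0.41 ± 0.05) and FKBP4 (-0.38 ± 0.06) were lower. The inducible HSPA1B fell from 64.2 and 53.01 to 31.3 and 36.3 CPM (-0.79 ± 0.10), but HSPA1A is a near-identical copy, so reads may have been split between them. HSF1, the factor that drives this response, had 0.04 ± 0.06 and was not called.

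Promoters of these genes were read for GAANNTTC, the paired unit that HSF1 binds. It was in 6 of 20 promoters of cytosolic, mitochondrial and TRiC chaperones called lower (30%) and in 4 of 14 of those not called lower (28.6%), beside 3.96% of the promoters of all genes tested. CHORDC1, also called lower, has the unit at 3 places. The promoter of HSPA8 is shown as an example, with the unit in capitals at 2 places. They start 230 and 50 bases before the start site.
HSPA8, chr11:123062137-123062386, minus strand: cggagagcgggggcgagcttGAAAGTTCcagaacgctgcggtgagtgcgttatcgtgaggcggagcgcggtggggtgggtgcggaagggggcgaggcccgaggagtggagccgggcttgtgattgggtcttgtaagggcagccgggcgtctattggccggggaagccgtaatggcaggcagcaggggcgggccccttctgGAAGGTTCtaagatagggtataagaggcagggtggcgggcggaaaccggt

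The small heat shock protein CRYAB, which holds unfolded proteins, was at 15.6 and 16.6 CPM in GFP and 6.34 and 6.95 CPM in R175H (-1.27 ± 0.15, -1.31 against GFP replicate 2 alone), 2.41-fold lower. TRiC, the ring that folds actin and tubulin, had 5 of 8 tested subunits lower in both comparisons. The amounts were small, CCT2 having -0.29 ± 0.06 and TCP1 -0.29 ± 0.06. In a fit on only the GFP and R175H libraries 0 of the 8 subunits were called. Without R175H replicate 1 the CCT2 call (-0.33) alone was kept, without R175H replicate 2 the TCP1 call (-0.34) alone, and without GFP replicate 2 all 8 subunits were lower.

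In the endoplasmic reticulum 12 of 26 tested chaperones and unfolded protein response genes were lower and 2 higher (10 and 1 against GFP replicate 2 alone). HSPA5, the HSP70 of that compartment, was at 653 and 634 CPM in GFP and 447 and 443 CPM in R175H (-0.53 ± 0.05). MANF, a secreted stress-induced factor, went from 67.2 and 62.9 to 41.0 and 41.6 CPM (-0.65 ± 0.08). HSP90B1, the HSP90 of the compartment, went from 587 and 541 to 432 and 418 CPM (-0.41 ± 0.06). The lectin CALR went from 1013 and 983 to 762 and 806 CPM (-0.35 ± 0.05). The groups did not overlap in these 4. Without R175H replicates 1 and 2 in turn, 5 and 6 genes were lower and 0 were higher. The 2 higher ones were SEL1L (0.23 ± 0.07) and EDEM1 (0.35 ± 0.08), which act in the degradation of misfolded proteins, and both calls were lost without R175H replicate 1 or 2.

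Proteasome subunits had 7 of 32 tested genes lower and 0 higher, with a median of -0.17, or -0.09 against GFP replicate 2 alone, where 7 were also lower. PSMD12, a subunit of the regulatory lid, was at 84.0 and 83.1 CPM in GFP and 64.2 and 63.4 CPM in R175H (-0.39 ± 0.07). It was the member whose call held in every alternative. In the absence of R175H replicates 1 and 2 in turn, 2 and 3 subunits were called, and without GFP replicate 2 there were 29. Of 52 nuclear-encoded respiratory chain genes 1 was lower and 0 higher against both GFP libraries, but 31 were lower without GFP replicate 2. The list had a median of -0.08 against both GFP libraries and 0.03 against GFP replicate 2 alone, so its sign rested on GFP replicate 1.

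Some ribosome biogenesis genes were lower, and the direction of ribosomal protein genes depended on the GFP library. Of 36 tested genes of ribosome assembly and rRNA processing 15 were lower and 1 higher, in both comparisons, with medians of -0.17 and -0.17. NOP16, a nucleolar protein, was at 109.7 and 107 CPM in GFP and 73.6 and 76.2 CPM in R175H (-0.53 ± 0.07). NOP2, an rRNA methyltransferase, went from 167 and 169 to 118 and 131 CPM (-0.43 ± 0.06). LYAR, a nucleolar regulator, went from 60.2 and 56.9 to 42.8 and 42.3 CPM (-0.46 ± 0.08), and the nucleolar GTPase GNL3 from 138 and 124 to 101 and 103 (-0.36 ± 0.07). These 4 calls held in every alternative. Of the 36 genes, 4 were lower in a fit on only the GFP and R175H libraries. The numbers lower were 4 and 7 without R175H replicates 1 and 2 in turn.
Of 75 cytosolic ribosomal proteins, 2 were higher and 0 lower against both GFP libraries, with a median of -0.02. With GFP replicate 2 as the only control 38 were higher, with a median of 0.13. RPL3, a large subunit protein, was at 2465 and 2257 CPM in GFP and 2722 and 2771 CPM in R175H (0.22 ± 0.05, 0.28 against GFP replicate 2 alone). The call was lost without R175H replicate 1 (0.23) or 2 (0.21), and in both cases no ribosomal protein was called. Without GFP replicate 2 the direction was the opposite, with 44 lower and 2 higher. These transcripts are short, with a median of 1170 nt, in the range in which GFP replicate 1 was high. With the length trend removed and GFP replicate 1 left out, 39 were higher and 0 lower, with a median of 0.10.

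**Figure D4:**
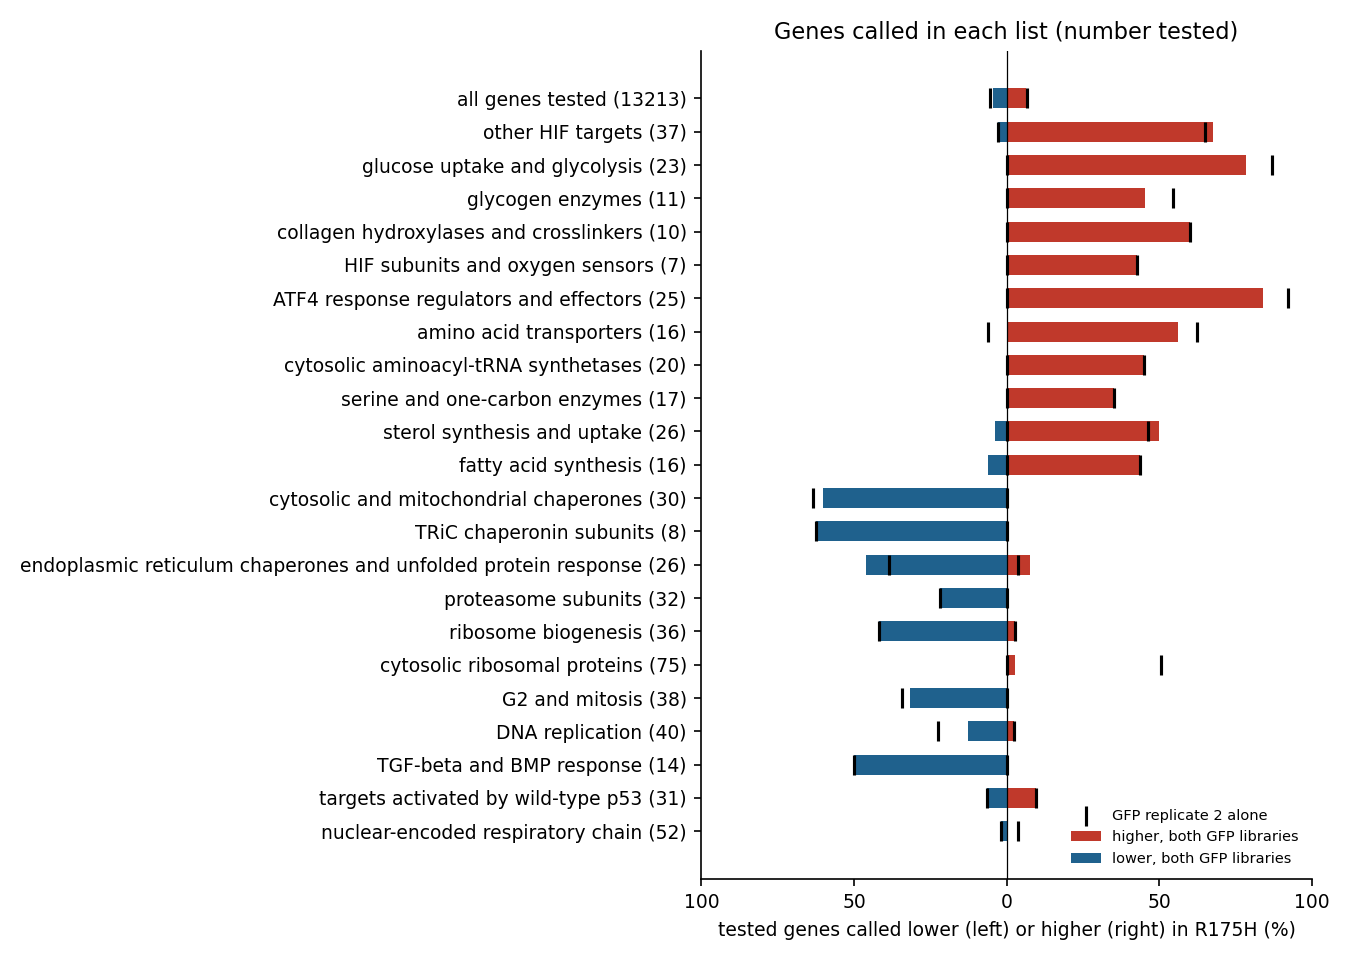
Bars give the percent of tested genes of each list called higher (red, right) or lower (blue, left) in R175H against both GFP libraries, and black ticks the same against GFP replicate 2 alone. The number tested is beside each name, and the first row gives all genes tested. Bar and tick lie close for most lists and far apart for cytosolic ribosomal proteins, 2 against 38 of 75 genes.

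Part of the genes of G2, mitosis and replication were lower, by small amounts. Of 38 tested genes of G2 and mitosis 12 were lower and 0 higher (13 and 0 against GFP replicate 2 alone), and the median log2 fold change was -0.13. CCNB1, the mitotic cyclin, was at 378 and 366 CPM in GFP and 304 and 305 CPM in R175H (-0.29 ± 0.05, -0.27 against GFP replicate 2 alone). It was the gene of this list that held in every alternative. A fit on only the GFP and R175H libraries called 2 genes of the list lower. Without R175H replicates 1 and 2 in turn 2 and 5 were lower, and without either R248Q library 7. Of 40 DNA replication genes 5 were lower and 1 higher, and 9 and 1 against GFP replicate 2 alone. FEN1, the flap endonuclease, went from 246 and 221 to 172 and 185 CPM (-0.39 ± 0.06). ORC6, part of the origin recognition complex, went from 57.9 and 51.8 to 38.5 and 40.8 CPM (-0.46 ± 0.09). CDT1, which loads the replicative helicase, moved the other way, from 185 and 190.4 to 242 and 234 CPM (0.34 ± 0.06). Without R175H replicates 1 and 2 in turn there were 3 and 2 lower, and without GFP replicate 2 there were 11. Nucleotide synthesis had 2 of 22 tested genes lower, 0 without R175H replicate 1 or 2 and 8 without GFP replicate 2.

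Genes that wild-type p53 activates were called at rates near those of all genes tested, of which 6.39% were higher and 4.59% lower. Of 31 tested members 3 were higher and 2 lower, also against GFP replicate 2 alone, with a median of 0.05. Among the higher ones, SESN2 and GDF15 are ATF4 targets as well. PLK2, a stress-induced kinase, was at 194 and 204 CPM in GFP and 295 and 280.3 CPM in R175H (0.53 ± 0.06). AEN, an apoptotic nuclease, fell from 48.9 and 55.0 to 36.9 and 37.7 CPM (-0.48 ± 0.09). CDKN1A, a cyclin kinase inhibitor and the best known p53 target, was at 10.4 and 12.6 CPM in GFP and 9.74 and 10.2 in R175H and was not called (-0.20 ± 0.16, edgeR adjusted p = 0.461). The apoptosis effector BAX had -0.24 ± 0.08 (adjusted p = 0.085). Of 14 tested members of the BCL2 family, which set the threshold of apoptosis, edgeR called 0 in either direction, as did DESeq2 and limma-voom. At an unadjusted p under 0.05 there were 4. The share of all genes tested under that threshold was not counted, so the 4 are not read as a result. Without GFP replicate 2 more genes were called lower over all genes tested, and members of both lists were among them.

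TXNIP, an arrestin that restrains glucose uptake and is itself induced by glucose through MondoA, was at 32.6 and 30.6 CPM in GFP and 6.20 and 6.95 CPM in R175H, 4.77-fold lower (log2 -2.25 ± 0.13, edgeR adjusted p = 4.7e-08). Its difference was -2.21 against GFP replicate 2 alone. It was the called member of 7 tested alpha-arrestins and MondoA partners. The relative ARRDC4, another glucose-responsive arrestin, had -0.26 ± 0.11 and was not called.

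Genes of signalling and of the mesenchymal state showed smaller groups of changes. In the TGF-beta and BMP list 7 of 14 tested genes were lower and 0 higher, in both comparisons. MSX2, a homeobox target of BMP, was at 180.3 and 178 CPM in GFP and 119 and 126 CPM in R175H (-0.55 ± 0.06). The ligand BMP4 had -0.89 ± 0.18, a call that was lost without R175H replicate 1 (-0.88) or 2 (-0.90). The count was 4 without R175H replicate 1 and 2 without R175H replicate 2. Contractile and SRF or YAP target genes had 4 lower and 2 higher of 18. Smooth muscle actin ACTA2 went from 27.2 and 26.3 to 17.3 and 17.5 CPM (-0.62 ± 0.11) and the myosin light chain MYL9 from 37.7 and 31.5 to 19.2 and 21.8 (-0.75 ± 0.11). Without R175H replicate 1, 3 were lower and 0 higher, without R175H replicate 2 there were 2 and 1, and without GFP replicate 2 there were 5 and 5.

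Of 27 tested mesenchymal and matrix genes 6 were higher and 4 lower, but 4 and 8 against GFP replicate 2 alone. TWIST1, a repressor that drives the mesenchymal state, was at 388 and 359 CPM in GFP and 517 and 495 CPM in R175H (0.44 ± 0.06). The surface protein THY1 went from 46.6 and 50.8 to 32.6 and 32.2 CPM (-0.59 ± 0.09), and the secreted Wnt antagonist SFRP4 from 80.1 and 77.7 to 53.1 and 50.8 (-0.61 ± 0.08). LRP1, an endocytic receptor with a transcript of 14897 nt, was at 71.4 and 99.2 CPM in GFP and 144 and 135 in R175H. The GFP libraries differed in it, and its log2 fold change was 0.71 ± 0.11 against both and 0.49 against GFP replicate 2 alone. There were 2 higher without R175H replicate 1 or 2, without GFP replicate 2 there were 12 higher, and without either R248Q library or R273H replicate 2 there were 2 lower. Collagen COL1A1 was not called against both GFP libraries (-0.12 ± 0.05) and had -0.17 against GFP replicate 2 alone.

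Interferon, NF-kB and antioxidant lists had few calls, but the lists are small. Over all genes tested 6.39% were higher and 4.59% lower. The NF-kB list lay above both shares, the interferon list above that of lower genes only, and the antioxidant list near both. Of 19 tested interferon genes 2 were lower and 0 higher, IFITM2, a membrane protein that blocks virus entry, going from 94.4 and 86.6 CPM in GFP to 58.4 and 61.4 CPM in R175H (-0.59 ± 0.07). Of 10 NF-kB genes 2 were higher and 1 lower, the precursor subunit NFKB2 going from 68.7 and 69.3 to 88.4 and 90.2 CPM (0.37 ± 0.07). Of 24 NRF2 and antioxidant genes 2 were higher and 1 lower (2 and 2 against GFP replicate 2 alone), and SLC7A11, shared with the ATF4 list, was 1 of the 2. Without GFP replicate 2, 7 antioxidant and 4 interferon genes were lower. Without R175H replicate 1, 1 gene each was higher in the NF-kB and antioxidant lists and 1 lower in the interferon list. TUBB3, a neuronal tubulin that many tumour lines express, went from 214 and 214 to 167 and 163 CPM (-0.38 ± 0.06). It took most of the summed level of the neural markers, 223 CPM in both GFP libraries and 171 to 176 CPM in R175H. In such bulk libraries fewer cells of a kind and less RNA per cell cannot be told apart.

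The single genes with the largest changes were in part those above and in part genes with few counts. Named by rule were those called against both GFP libraries and against GFP replicate 2 alone. NDRG1, MIR210HG, CA9, NDUFA4L2 and PFKFB4 of the HIF lists were among the largest rises, and TXNIP and CRYAB among the largest falls. SLAIN1, a microtubule plus-end protein, had 26 and 18 counts in the GFP libraries and 49 and 61 in those of R175H (1.57 ± 0.23), a call that held in every alternative. KIAA1244, a regulator of vesicle trafficking, had 3 and 3 counts in GFP and 16 and 22 in R175H. Its pooled ratio after scaling was 7.57 (exact 95% counting interval 3.17 to 21.9). RIMKLA, which makes N-acetylaspartylglutamate, rose from 13 and 8 to 33 and 45 counts (2.14 ± 0.34).

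TCP11L2 went from 2 and 4 counts in GFP to 11 and 20 in R175H, a pooled ratio of 6.17 (exact 95% counting interval 2.54 to 18.1). Its call was lost without R175H replicate 2 (2.30). EFEMP2, a protein of elastic fibres, had 6 and 4 counts in GFP and 11 and 19 in R175H (1.82 ± 0.49) and was lost without R175H replicate 1 (1.97) or 2 (1.58). Neither gene reached 3 CPM in any of the 4 libraries.

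Of the largest falls, TFEC, a relative of the lysosomal regulator TFEB, had 22 and 17 counts in GFP and 1 and 1 in R175H. The pooled ratio, GFP over R175H, was 16.3, with an exact 95% counting interval of 4.23 to 139.6. KRT4, a keratin of mucosal epithelium, had 14 and 24 counts in GFP and 2 and 2 in R175H (ratio 7.95, interval 2.86 to 30.7). The Wnt antagonist DKK2 had 16 and 18 counts in GFP and 3 and 3 in R175H (ratio 4.74, interval 1.97 to 13.8). All R175H libraries of these 3 genes had 3 counts or fewer. The KRT4 call was lost without R175H replicate 1 (-3.11) or 2 (-2.73), and so was that of DKK2 (-2.39 and -2.01).

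PRSS23, a serine protease, had 26 and 23 counts in GFP and 2 and 9 in R175H (ratio 3.73, interval 1.91 to 7.95). CYP1A1, the main target of the aryl hydrocarbon receptor, had 31 and 27 counts in GFP and 2 and 14 in R175H (ratio 3.03, interval 1.72 to 5.66). IL7R, a cytokine receptor, had 44 and 42 counts in GFP and 4 and 21 in R175H. In these 3 genes R175H replicate 1 was far lower than replicate 2, and without it the calls were lost (-1.36, -0.97 and -0.96). That of PRSS23 was also lost without R175H replicate 2 (-3.10). FKBP1B, which steadies calcium channels, had -1.58 ± 0.36 and was lost without R175H replicate 1 or 2 (-1.39 and -1.86). AP1M2, an adaptor for basolateral sorting, had -1.39 ± 0.32 and was lost in the same way (-1.57 and -1.18). TREX2, an exonuclease, had -1.21 ± 0.32 and was lost without R175H replicate 2 (-0.83). WTIP, a LIM domain protein, was at 12.03 and 25.5 CPM in GFP, where the libraries differed, and 8.26 and 7.40 in R175H. Its log2 fold change was -1.26 ± 0.28, with -1.71 against GFP replicate 2 alone and -0.63 against GFP replicate 1 alone. The R248Q and R273H libraries were at 9.97 to 12.6 CPM, near GFP replicate 1. The transcript of WTIP is 13665 nt long, in the range in which GFP replicate 1 was low, and the part of length was not tested. The WTIP call was lost without R175H replicate 1 or 2 (-1.33 and -1.17).

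**Figure D5:**
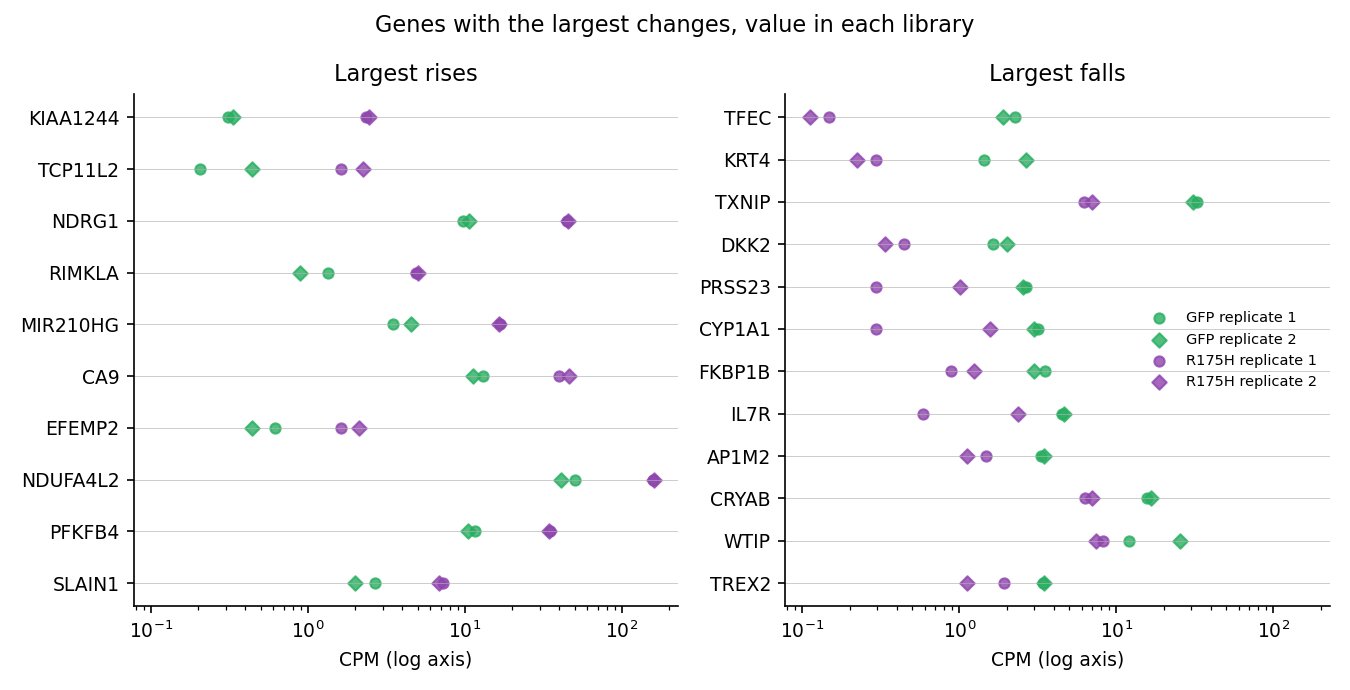
Each row is a gene named by rule, with its CPM on the x axis (log scale) in each of the 2 GFP (green) and 2 R175H (purple) libraries. The groups do not overlap in any row, as the rule required, and rows such as IL7R and CYP1A1 show R175H libraries that stand apart from each other.

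R175H was set against the mean of R248Q and R273H, a comparison that uses the same R175H libraries and no GFP library. Over the 916 well-counted genes of 8000 nt or more, the R248Q libraries had median deviations of 0.14 and 0.13. In this comparison genes of 8000 nt or more had a median log2 fold change of -0.06, and those under 2000 nt 0.03. Against the other mutants 577 genes were higher in R175H (4.37% of genes tested) and 423 lower (3.2%). Of the 844 genes higher than in GFP 360 were also higher than in the other mutants, and of the 607 lower genes 228 were also lower. The 2 comparisons share the R175H libraries. Without R175H replicate 1 the counts were 214 and 71, and without R175H replicate 2 179 and 51. Without 1 library of R248Q or R273H at a time there were 296 to 343 higher and 153 to 190 lower genes. GFP replicate 1 enters only through the pooled spread, and without it they were 1238 and 1150. Without GFP replicate 2 they were 1240 and 1151.

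HIF targets were higher in R175H than in the other mutants as well: 20 of 23 genes of glucose uptake and glycolysis, 26 of 37 other targets and 7 of 10 collagen enzymes, with 0 lower in each list. NDUFA4L2 was at 42.4 to 44.1 CPM in the R248Q and R273H libraries (R175H minus their mean 1.87 ± 0.07). CA9 was at 9.07 to 11.9 CPM in them (1.99 ± 0.11) and NDRG1 at 11.6 to 14.1 CPM (1.81 ± 0.09). PDK1 was at 14.6 to 16.3 CPM in those libraries (1.51 ± 0.08). The levels of these 4 genes in all 4 libraries of the other mutants were below both R175H libraries. ATF4 genes were higher in 17 of 25 cases and lower in 0, with a median of 0.32. SLC7A11 was at 104 to 129 CPM in the other mutants and did not pass the test (0.11 ± 0.06, edgeR adjusted p = 0.330).

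Chaperones were lower than in the other mutants in 12 of 30 cases, with a median of -0.19, and sterol genes higher in 7 of 26. HSPA8 was at 2302 to 2368 CPM in the R248Q and R273H libraries, and R175H differed from their mean by -0.43 ± 0.04. Ribosome biogenesis genes were lower in 12 of 36 cases. TXNIP was at 20.1 to 22.9 CPM in the other mutants (-1.69 ± 0.13). Of the other largest falls, CRYAB, DKK2, AP1M2 and TREX2 were also called lower than in the other mutants. TFEC (-1.22 ± 0.90), KRT4 (-1.39 ± 0.70), PRSS23 (-0.51 ± 0.57) and CYP1A1 (-0.07 ± 0.48) were not called in that comparison, and neither were IL7R, FKBP1B and WTIP. The genes SFRP4 and ACTA2, lower in R175H than in GFP, were higher in it than in the other mutants: SFRP4 (34.4 to 37.1 CPM there, 0.54 ± 0.07) and ACTA2 (11.4 to 13.1 CPM there, 0.50 ± 0.10). COL1A1 was lower in R175H than in the other mutants (1842 to 1893 CPM there, -0.48 ± 0.05, edgeR adjusted p = 5.9e-06).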

How the data were processed

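The authors deposited a table of raw counts per gene symbol for 8 libraries of HGC27 cells, 2 per group, grouped by their labels. Reads were converted with bcl2fastq and aligned with STAR 2.5 to hg19, per the submitters' processing notes; the sources used here do not give the strand setting or annotation. The table lists 25435 symbols, of which 6937 had no count, and total counts ran from 6800463 to 11788035, so that 3 counts are 0.441 CPM in the shallowest library.

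Counts were tested with edgeR 4.0.16 (R 4.3.3): TMM scaling, a minimum count of 10 and total count of 15 (filterByExpr), 1 mean per group over all 8 libraries, the quasi-likelihood test, and Benjamini-Hochberg adjustment at 0.05 over 13213 genes. CPM per library are TMM-scaled, sums over marker lists are plain CPM, and SE is the log2 fold change divided by the root of F. The code was tested on simulated data. Alternatives were other scalings, filters and tests (DESeq2 1.42.0, limma-voom with limma 3.58.1), the compared groups alone, a replicate block, each library left out, and removal of a loess trend (span 0.3) with transcript length. Length was that of the longest GENCODE v29 basic transcript of each symbol, found for 97.4% of genes tested. Promoters are from RefSeq.

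The genes with the largest changes were, by rule, those called with a mean of at least 1 CPM, no overlap between groups and the same call without GFP replicate 1, up to 12 rises and 12 falls; 2 genes that the rule also took are not reported here. The comparison, gene lists and rules were chosen with earlier results of these data known. Counting intervals cover counting error only.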

Additional observations from a re-analysis of the deposited data

How the results depend on the processing

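Every called gene count below has R175H higher first and lower second, against 844 and 607 for GFP and 577 and 423 for the mean of R248Q and R273H. Against GFP, DESeq2 called 490 and 337, and a fit on only the groups compared called 368 and 197. With the transcript length trend removed the lower calls were 1166, and 978 with GFP replicate 1 also left out. Leaving out 1 library at a time gave 307 to 1852 higher and 151 to 1539 lower genes, the fewest without R175H replicate 1 and the most without GFP replicate 2. Against the other mutants, DESeq2 called 314 and 219, the groups compared alone 1236 and 1149, removal of the length trend 880 and 912, and no filter beyond 1 count gave 641 lower. Leaving out 1 library at a time gave 179 to 1240 higher and 51 to 1151 lower genes there, the fewest without R175H replicate 2 and the most without GFP replicate 2. The cause of these shifts was not tested. Where 1 library of a group was left, it was assumed to vary like those of the other groups.

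The replicate numbers did not pair the libraries: the correlation of same-numbered deviations ran from -0.244 to 0.073 over the pairs of groups. With a replicate block the calls were 623 and 421 against GFP, and 436 and 271 against the other mutants. With the numbers of the GFP libraries crossed, an alternative chosen after seeing the data, they were 1090 and 874.

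Of the log2 fold changes of single genes in the text, those of 3 genes that were not called changed sign. Without 1 library at a time HIF1A ran from -0.053 (without GFP replicate 1) to 0.124, ATF4 from -0.033 (without GFP replicate 2) to 0.22, and VHL from -0.000845 (without R175H replicate 1) to 0.146. With the length trend removed and GFP replicate 1 left out HIF1A had -0.048. Calls of genes in the text were lost most often without R175H replicate 1 (17 of 126 values) and replicate 2 (16 of 126). Scalings moved the median of all genes by at most 0.0149. Genes under about 40 counts per group rest on few molecules, and 2 libraries per group limit the precision of every value.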
